A study of Mus musculus with 6 samples.

Results

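The genes described here are the protein-coding mouse genes whose symbol is Zfp followed only by digits and whose level averaged at least 5 over all 6 libraries of the study, 148 of the 365 genes of that name among 36065 genes in the deposited table. They were selected on that mean level, so their abundance is a description and was not tested, while differences between groups and libraries did not enter the choice. The study cultured wild-type mouse 1-cell embryos in vitro in 3 conditions, each with 2 biological replicates and 1 library per replicate. One group, CBR+SAM, received CBR-5884, an inhibitor of serine synthesis, together with S-adenosylmethionine, the methyl donor that one-carbon metabolism supplies. A second group, CBR, received CBR-5884 alone, and the DMSO group received the vehicle. The labels give no embryo number per library, dose, strain or exposure time. They number the replicates but do not state what libraries with the same number have in common. Where nothing else is said, p-values measure only the spread between these libraries.

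Zinc finger proteins of the C2H2 type bind DNA, and sometimes RNA, through repeated finger modules, each held by a zinc ion between a pair of cysteines and a pair of histidines. In mammals the largest class carries a KRAB domain, which recruits the corepressor TRIM28 and with it the histone H3 lysine 9 methyltransferase SETDB1 to the bound site. In the early embryo such proteins are known for keeping methylation on imprinted regions and for silencing retroelements, and many of their genes lie in clusters of near-identical copies. Zfp is the prefix mouse nomenclature gives to zinc finger genes of many kinds, so the name covers proteins of unrelated function.

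The 148 genes were 40.5% of the Zfp-named genes, and 32.7% of all protein-coding genes reached the same mean. Of the related families, 12 of 35 Zbtb genes, 5 of 11 Zkscan genes and 1 of 10 Zscan genes reached the same mean. Among the 217 Zfp-named genes under the threshold, 113 averaged under 1 and 6 were listed at 0 in every library. Just inside the threshold were Zfp184 with a mean of 5.22 and Zfp976 with 5.21, and just outside it were Zfp558 with 4.94 and Zfp989 with 4.80. All 148 passed the filter on low values of the fits below, which a mean of at least 5 makes likely.

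Translated from the annotated coding sequences, 87 of the 148 proteins matched a fixed pattern for the core of a KRAB domain and 61 did not. With or without a KRAB core means with or without this match throughout. A KRAB domain that departs from the pattern is missed, as in the listed KRAB protein Zfp708, so the 61 are a mixed set. The median number of C2H2 fingers was 11, with a range of 0 to 30, and 125 proteins had at least 5. The conserved linker between fingers that is typical of the family occurred in 116. Clustering in the genome went with the KRAB core, since 69 of the 87 genes with it lay within 500 kb of another of the 148, against 23 of the 61 without it. Near-identical copies did too. In 37 of the 87, against 2 of the 61, at least 25% of all 31-base stretches of the transcripts also occurred in another gene, so that the authors' quantification could divide reads between copies and those levels are uncertain. Over all 148 the median of that share was 4.76%.

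The values are the authors' abundance per gene, already divided by transcript length, so levels of different genes can be set side by side. The median of the 148 means was 21.9, with an interquartile range of 9.30 to 48.03, and the median of all 7130 protein-coding genes over the same threshold was 25.5. A mean of at least 100 was reached by 24 genes and a mean of at least 1000 by 3.

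Zfp131 (ENSMUSG00000094870, chromosome 13, 119765187 to 119790889 of mm10, minus strand), which encodes a BTB-domain zinc finger protein, was the most abundant by far. It stood at 7033 and 10896 in the CBR+SAM libraries, 7839 and 8164 in the CBR libraries and 7816 and 8303 in the DMSO libraries. Both extremes came from the CBR+SAM group, so the 3 groups overlapped. Its 9 annotated transcripts ranged from 255 to 3109 bases, and a value per gene that divides by length depends on how reads were given to them. Only 2.90% of its 31-base stretches were shared with other genes.

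Zfp706, a small protein of 76 residues with a single finger, whose loss in mouse embryonic stem cells delays the exit from self-renewal, came next. Its levels were 1796 and 1939 with CBR+SAM, 1843 and 2065 with CBR, and 1633 and 1803 with DMSO. Zfp57, the KRAB protein that binds methylated imprinting control regions and is supplied by the oocyte as well as the embryo, stood at 795 and 1196 with CBR+SAM, 1065 and 1169 with CBR, and 1085 and 1107 with DMSO. The lowest Zfp57 value was that of CBR+SAM replicate 2, and the other 5 libraries lay within 1065 to 1196.

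Below these 3 came Zfp967 with a mean of 543, Zfp655 with 412, Zfp982 with 371, Zfp410 with 268, Zfp951 with 235, Zfp735 with 203, Zfp68 with 198, Zfp560 with 169 and Zfp958 with 164. Zfp410 is known as a dedicated activator of Chd4, the remodelling subunit of the NuRD complex. Every 31-base stretch of Zfp967 is also found in Zfp966, so its level cannot be separated from that of its copy.

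**Figure D1:**
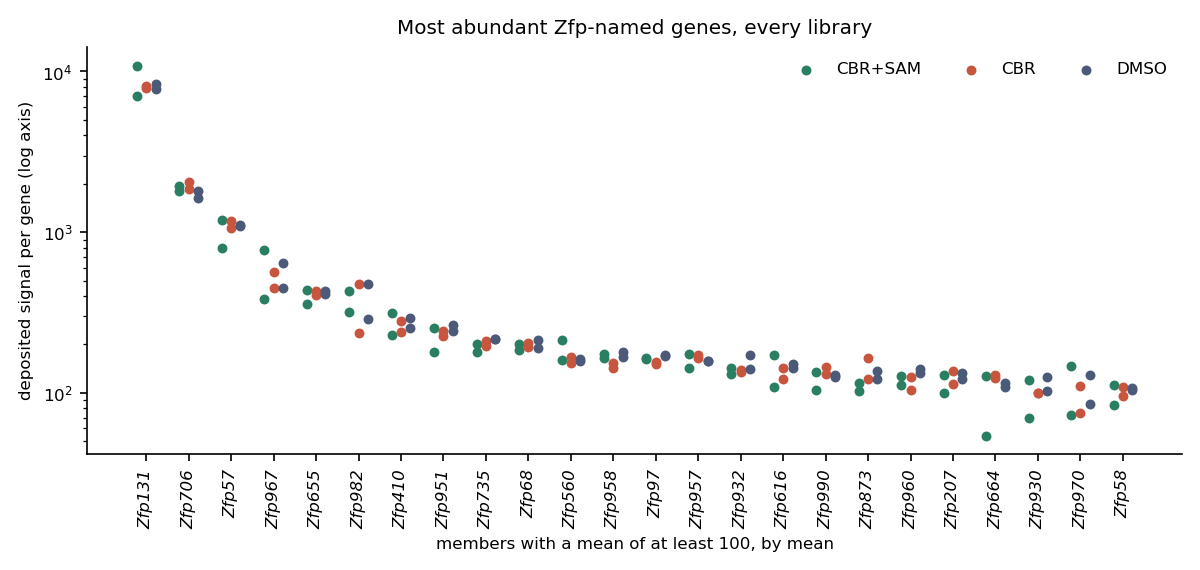
Deposited signal (log axis) of the 24 genes whose mean reached 100, in each of the 6 libraries, 2 points per group for CBR+SAM, CBR and DMSO. Zfp131 lies between 7033 and 10896, and Zfp664 has its lowest value, 54.0, in 1 of the CBR+SAM libraries.

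The genes were then read by known role, from lists chosen with earlier results of these data known. Of 10 listed proteins with described imprint or retroelement targets in mouse, 9 were among the 148, and the translated sequence of all of these but Zfp708 held the KRAB core. Zfp932, which silences endogenous retroviruses, was high after Zfp57, at 131.4 and 142 with CBR+SAM, 134 and 138 with CBR and 140 and 172 with DMSO. Zfp445, the other known keeper of imprints, was near the threshold at 8.10 and 8.83 with CBR+SAM, 5.64 and 7.53 with CBR and 8.52 and 9.06 with DMSO. Zfp809, which silences murine leukaemia virus sequences through their primer binding site, averaged 7.99, Zfp568, the repressor of a placental Igf2 transcript, 5.80, and Zfp708, which binds RMER19B retroelements, 5.59. Zfp932 shares 48.1% and Zfp708 95.6% of 31-base stretches with other genes, so both levels are uncertain. Whether Zfp708 reaches the threshold is uncertain for the same reason.

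Of 8 genes known from embryos or pluripotent cells, 3 were among the 148. The spindle factor Zfp207, which loads BUB3 onto kinetochores, averaged 122, Zfp296 averaged 30.6 and the transcriptional activator Zfp143 averaged 6.01. Zfp42, the pluripotency marker Rex1, averaged 1.11 and Zfp352 averaged 1.41, both under the threshold. For RNA handling, 5 of 9 listed genes were among the 148, with Zfp106, an RNA-binding protein needed by motor neurons, at 68.2 and Zfp638, which takes part in silencing of retroviral DNA by the HUSH complex, at 61.7. The ligases of the ubiquitin and SUMO pathways were Zfp451 at 30.8, Zfp91 at 9.12 and Zfp598, which marks collided ribosomes, at 6.83. Of 10 chromatin cofactors, 4 were among the 148, with Zfp410 and Zfp644, a partner of the methyltransferases EHMT1 and EHMT2, as the highest, and Zfp644 averaged 48.6.

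All 8 markers of oocytes and zygotes were present, with the maternal-effect gene Dppa3 between 13565 and 17885. Of the markers of other cells that embryos can carry, 2 of 10 for cumulus cells, 1 of 6 for sperm and 1 of 5 for blood cells averaged at least 1. Their summed levels were 9.54 to 15.2, 11.5 to 16.4 and 0.847 to 2.31 per library, in which Cyp19a1, Prm2 and Cd68 took most, and Tnp1 was listed at 0 in all libraries. The deposited columns summed to between 956209 and 1059424, and 11529 to 11873 genes reached 1. CBR+SAM replicate 2 had the highest of both and stood apart in many of the genes, so the shares that it moves most are given with and without it. For a transcript of the 148 genes' median length, 2957 bases, a level of 5 corresponded to an estimated 290 to 359 reads. That estimate assumed fragments of 150 bases and searched the signal per read only within a fixed range. Only numbers of this order could therefore come out. Values relative to a library total cannot tell fewer embryos, or less of one kind of cell, from less RNA in each.

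The first question of the design is what the inhibitor did. In CBR against DMSO, 0 of the 148 genes passed an adjusted p of 0.05 by limma with Benjamini-Hochberg adjustment over 12249 genes, as did 0% of all genes tested. At an unadjusted p under 0.05 there were 2 of 148, against 2.12% of all genes. The fitted changes, differences of log2(signal + 1), ran from -0.57 to 1.16 with a median of -0.05, against -0.01 over all genes. The 95% interval lay between -1 and 1 for 136 of the 148. A positive change was fitted for 50 of them, 33.8%, against 48.3% of all genes. The groups did not overlap for 57 genes, against 33% of all genes. In 38 of them the CBR libraries were the lower pair, against 17.3%, and in 19 the higher pair, against 15.7%. Of the 87 genes with a KRAB core, 23 were among the 38 and 6 among the 19. Of the 61 without it, 15 and 13 were. No test was made of these shares.

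Zfp236 (ENSMUSG00000041258, chromosome 18, 82593593 to 82692883, minus strand), which encodes a protein of 1847 residues with 30 fingers and no KRAB core, had the largest change. It stood at 29.97 and 39.4 with CBR and at 14.3 and 15.4 with DMSO, and with CBR+SAM at 21.8 and 27.3. The CBR+SAM libraries thus lay between the other groups, and none of the 3 groups overlapped. Its change in CBR against DMSO was 1.16 (SE 0.20, 95% interval 0.69 to 1.62) with an unadjusted p of 0.000574 by limma and an adjusted p of 1. Over 16 alternative settings the change was 0.97 to 1.35 and the adjusted p 0.254 to 1. Almost none of its sequence is shared with other genes, 0.0190% of 31-base stretches.

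The other genes with higher CBR values and no overlap were smaller changes. Zfp937 stood at 6.58 and 12.02 with CBR against 5.06 and 6.04 with DMSO, a change of 0.60 whose interval of -0.15 to 1.35 included 0. Zfp60, at 63.4 and 64.6 against 54.9 and 56.3, Zfp706 and Zfp532 had changes of 0.20, 0.18 and 0.24. Zfp937 shares 43.8% of its 31-base stretches, so its level is uncertain.

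On the lower side Zfp653 stood at 6.27 and 7.15 with CBR against 8.82 and 10.4 with DMSO, a change of -0.46 (SE 0.19, 95% interval -0.90 to -0.02, unadjusted p = 0.0412 and adjusted p = 1 by limma). The imprint keeper Zfp445 had a change of -0.38, with an interval of -0.83 to 0.07. Zfp938, Zfp277 and Zfp563 had changes of -0.38, -0.28 and -0.57, and the interval of each included 0. Zfp57, the other imprint keeper, had a change of 0.03 with an interval of -0.45 to 0.51, and the sign of so small a change turned in 2 of 16 alternatives.

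**Figure D2:**
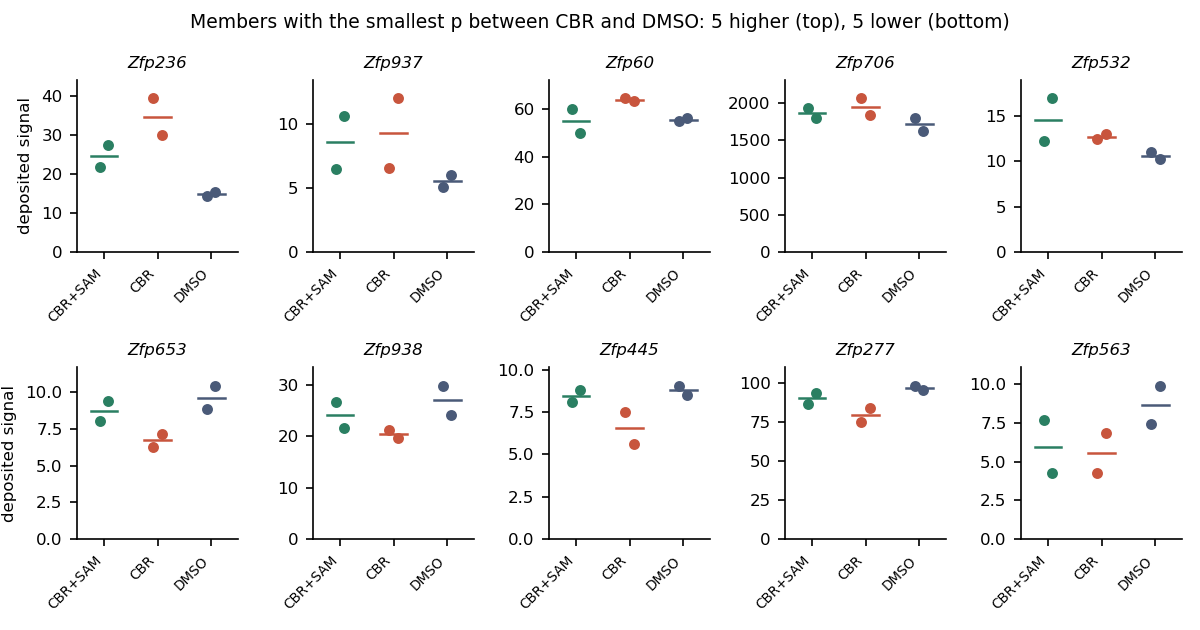
Deposited signal in each library for the 10 genes whose CBR and DMSO libraries did not overlap and whose p was smallest, 5 higher with CBR above and 5 lower below, each axis starting at 0. Points are libraries, bars are means of 2, and Zfp236, with CBR libraries at 29.97 and 39.4 and DMSO libraries at 14.3 and 15.4, has the largest fitted difference in log2(signal + 1).

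The second question is what S-adenosylmethionine changed in the presence of the inhibitor. In CBR+SAM against CBR, 0 of the 148 genes were called by limma with Benjamini-Hochberg adjustment, against 0.00816% of all genes, and 3 had an unadjusted p under 0.05, against 3.09%. All 3 were lower with CBR+SAM, against 1.36% of all genes. Positive changes were fitted for 67 genes, 45.3%, against 52.4% of all genes. Without CBR+SAM replicate 2 the share of the 148 was 60.8%, and that of all genes in this setting is not given here. The groups did not overlap for 29 genes, against 27.5% of all genes, and the fitted changes ran from -0.59 to 0.53 with a median of -0.01, against 0.01 over all genes. Zfp24, a SCAN-domain zinc finger gene, stood at 11.8 and 12.4 with CBR+SAM against 17.3 and 17.6 with CBR, a change of -0.49 (SE 0.15, 95% interval -0.85 to -0.13, adjusted p = 0.988 by limma). Its DMSO values were 16.9 and 17.0, close to those with CBR alone.

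Zfp777, a KRAB gene, stood at 7.20 in both CBR+SAM libraries against 9.83 and 9.99 with CBR, a change of -0.41 (95% interval -0.81 to -0.01). Zfp236 had a change of -0.48 with an interval of -0.94 to -0.01, where the CBR libraries are the same as those of its change against DMSO. Zfp959 and Zfp873 had changes of -0.40 and -0.38. Higher with CBR+SAM were Zfp825 at 10.9 and 13.4 against 7.37 and 8.80 with CBR, a change of 0.53 with an interval of -0.005 to 1.06 that just included 0, and Zfp709, Zfp511, Zfp653 and Zfp445 with changes of 0.44, 0.38, 0.34 and 0.33. Zfp653 and Zfp445 had the opposite sign in CBR against DMSO, a comparison that shares the CBR libraries.

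Against DMSO, CBR+SAM gave 0 of 148 calls by limma with Benjamini-Hochberg adjustment, with 0.00816% of all genes called, and 3 genes with an unadjusted p under 0.05, against 2.14%. Positive changes were fitted for 43 of the 148, 29.1%, against 49% of all genes, with a median of -0.10 against 0.00. Both CBR+SAM libraries lay below both DMSO libraries for 32 genes, against 12.1% of all genes, and above them for 7, against 12.4%. The share with positive changes was 18.2% when libraries were scaled to the same protein-coding sum, where that of all genes was 35.8%. Without CBR+SAM replicate 2 it was 46.6%, and the share of all genes in this setting is not given here. Zfp236 had the highest of these changes, 0.68 (95% interval 0.21 to 1.14, unadjusted p = 0.0105 and adjusted p = 1 by limma). Zfp24, with a change of -0.45, and Zfp433, at 29.1 and 35.5 with CBR+SAM against 43.1 and 46.8 with DMSO and a change of -0.47, were the others. Zfp433 shares 81.8% of its 31-base stretches with the predicted gene Gm32687.

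The remaining genes named by the same rule had intervals that included 0. Zfp532, Zfp937, Zfp511 and Zfp235 had changes of 0.41, 0.51, 0.22 and 0.17, and Zfp442, Zfp74 and Zfp3 of -0.32, -0.33 and -0.47. Among the genes of the role lists, 0 were called by limma in any of the 3 treatment comparisons and 0 had an unadjusted p under 0.05.

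**Figure D3:**
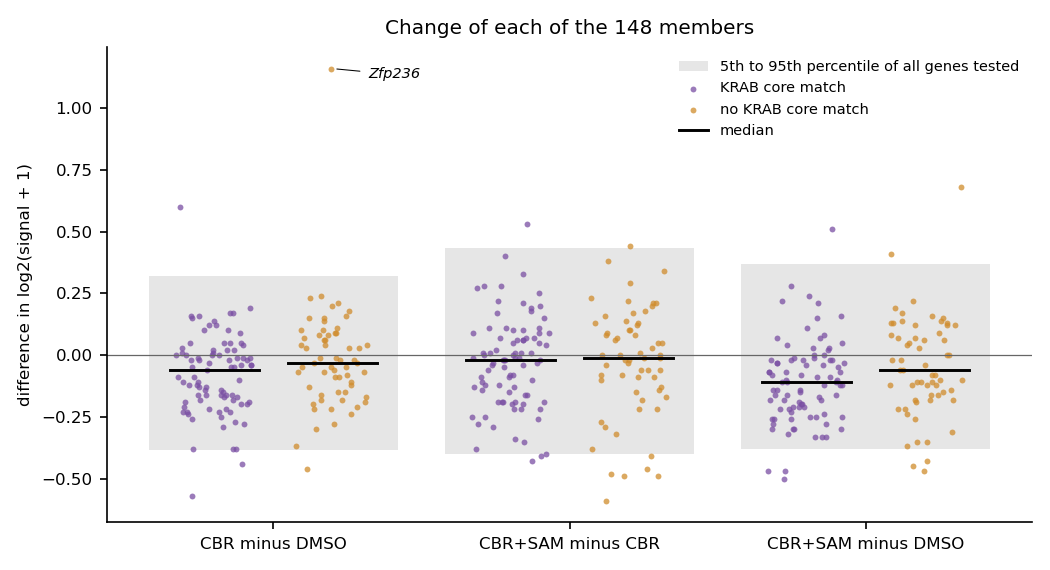
Fitted difference in log2(signal + 1) of each of the 148 genes in the 3 treatment comparisons, split into 87 genes with and 61 without a KRAB core, with black bars at the medians and grey bands from the 5th to the 95th percentile of all 12249 genes. Most points lie inside the bands, Zfp236 stands at 1.16 for CBR minus DMSO, and both medians for CBR+SAM minus DMSO lie below 0.

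CBR+SAM replicate 2 had the lowest value of all 6 libraries for 62 of the 148 genes, 41.9%, against 27.7% of all genes tested, while it had the highest for 19 of them, 12.8%, against 29.3%. The KRAB-core genes summed to 6127 in CBR+SAM replicate 1 and 5098 in replicate 2, to 5510 and 5865 with CBR and to 5953 and 5968 with DMSO. Without Zfp131, which was highest in that library, all the genes summed to 10297 and 8886 with CBR+SAM, 9799 and 9873 with CBR and 9979 and 9793 with DMSO. For single genes the gap was wide, as in Zfp664, at 128 in replicate 1 against 54.0 in replicate 2, and Zfp106, at 76.8 against 39.3. That library also had the highest column sum, 1059424, the most genes at 1 or more, 11873, and the highest sums of sperm and blood markers, 16.4 and 2.31, and their part in these values was not tested. With CBR+SAM replicate 1 left out, replicate 2 stood alone for the group. Positive changes in CBR+SAM against CBR were then fitted for 39.2% of the 148 genes. With replicate 2 left out instead, they were fitted for 60.8%. No share of all genes is given here for either setting.

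Proteins of KRAB-mediated silencing and of other chromatin silencing were looked up as a list of 24 symbols. Of these, 22 genes could be tested, and 0 were called in any comparison by limma with Benjamini-Hochberg adjustment. Trim28 stood at 23.8 and 37.5 with CBR+SAM, 25.8 and 33.3 with CBR and 19.9 and 25.7 with DMSO, and Setdb1 lay between 25.6 and 30.3 throughout. In CBR against DMSO 17 of the 22 changes were positive, where 48.3% of all genes were, with a median of 0.05. Ehmt2, the H3K9 methyltransferase G9a, had the smallest p there, at 3.62 and 4.05 with CBR against 1.43 and 1.70 with DMSO, a change of 0.91 (95% interval 0.46 to 1.37, adjusted p = 1 by limma). In CBR+SAM against CBR 8 were positive and 14 negative, where 52.4% of all genes were positive, and neither share was tested. Chd4, the target of Zfp410, had the smallest p, at 8.46 and 11.7 with CBR+SAM against 16.3 and 18.2 with CBR, a change of -0.74 (95% interval -1.19 to -0.28, adjusted p = 0.988 by limma). Zfp410 itself stood at 228 and 316 with CBR+SAM, 239 and 280 with CBR and 253 and 293 with DMSO, so its groups overlapped.

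Libraries were also compared by replicate number, 3 against 3, where the treatment comparisons have 2 against 2. In libraries numbered 2 against libraries numbered 1, with the treatment in the model, 46 of 12249 genes were called by limma with Benjamini-Hochberg adjustment, 0.376%, and 0 of the 148. The smallest adjusted p among the 148 was 0.0655. At an unadjusted p under 0.05 there were 25 of 148, against 9.67% of all genes. In all 3 treatments the library numbered 2 was the higher for 22 genes, against 16.9% of all genes, and the lower for 39, against 15.7%. The number of the 148 genes called was 13 with array weights and 1 when protein-coding genes alone were fitted. Leaving out single libraries also changed it, as given at the end beside the calls among all genes. Calls among all genes also rose with array weights, as given with the alternatives at the end. No shares of all genes are given here for these settings, so the counts are not read as particular to the 148.

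Of the 22 higher genes, 10 lay on chromosome 4. That chromosome held 18 of the 148 genes, and these 10 were higher in the library numbered 2 in every treatment, while 0 were lower. Chromosome 7, which holds the most, 30, had 2 higher and 11 lower, and chromosome 17, with 24, had 5 and 4. All 10 lay in 1 cluster of 16 genes on chromosome 4 between 145510759 and 147848366, a block of 2.34 Mb that holds 21 protein-coding genes and 54 pseudogenes of the deposited table. Clusters of this kind hold KRAB zinc finger genes that arose in the rodent lineage, and proteins of the chromosome 4 cluster are known in mouse for binding endogenous retroviruses. The block was delimited after the values had been seen, as the run of the 148 genes on this chromosome less than 500 kb apart, so no test was made of it.

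**Figure D4:**
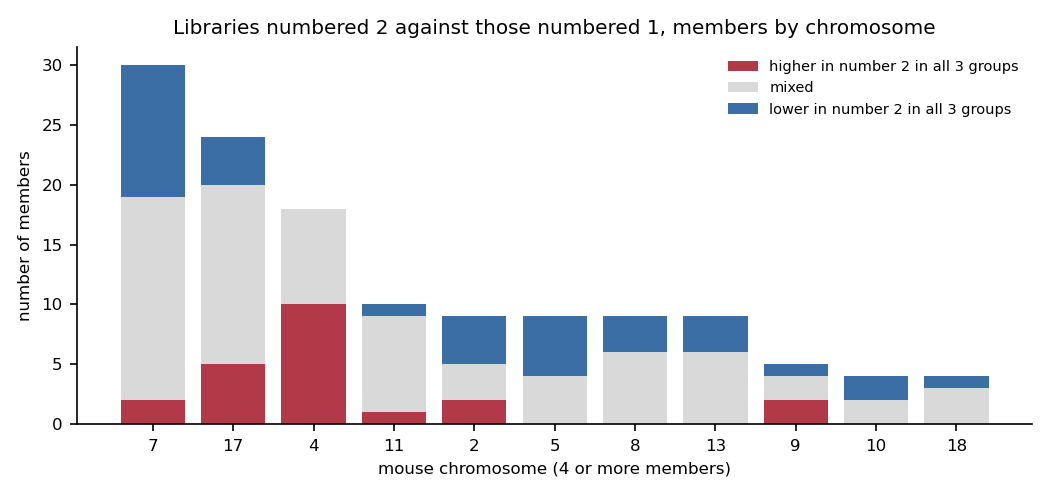
Number of the 148 genes on each chromosome with at least 4, split by whether the library numbered 2 was higher than the library numbered 1 in all 3 treatment groups, lower in all 3, or mixed. Chromosome 4 shows 10 of 18 higher and 0 lower, and chromosome 7 shows 2 of 30 higher and 11 lower.

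Zfp984 (ENSMUSG00000078495, chromosome 4, 147753974 to 147809788, minus strand), a KRAB gene with 11 fingers, had the largest change by replicate number. In the libraries numbered 2 it stood at 88.0 with CBR+SAM, 90.6 with CBR and 88.3 with DMSO, against 51.4, 34.2 and 41.1 in those numbered 1. All 3 libraries numbered 2 lay above all 3 numbered 1, with a change of 1.08 (SE 0.15, 95% interval 0.71 to 1.44, adjusted p = 0.0655 by limma). Over the alternatives the adjusted p was 0.00349 to 0.476.

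Zfp982, the most abundant of the block, stood at 431, 475 and 477 in the libraries numbered 2 with CBR+SAM, CBR and DMSO, against 320, 236 and 288 in those numbered 1, a change of 0.72 (95% interval 0.38 to 1.06). Zfp600 stood at 30.2, 38.4 and 38.7 against 19.7, 14.2 and 18.03 in the same order, a change of 1.01 (95% interval 0.59 to 1.43). Zfp992 had a change of 0.79 and Zfp534 of 0.72, with adjusted p of 0.112 and 0.131 by limma, and in both the libraries numbered 2 did not overlap those numbered 1. The remaining 5 of the 10 were Zfp979, Zfp991, Zfp993, Zfp985 and Zfp990, with changes of 0.58, 0.55, 0.48, 0.43 and 0.19. In Zfp980, Zfp981, Zfp978 and Zfp986 the library numbered 2 was higher with CBR and DMSO and lower with CBR+SAM.

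Copies in the block resemble each other, with 29.7% or more of 31-base stretches shared in all of its genes but Zfp933, and single levels are uncertain for that reason. Sums over the block add values already divided by length, so they too depend on how reads were divided between copies of unequal length, and with genes outside the block. All 75 genes of the block summed to 1065, 1191 and 1182 in the libraries numbered 2 with CBR+SAM, CBR and DMSO, against 833, 713 and 791 in those numbered 1. Each library numbered 2 was thus above each numbered 1. Without Zfp982 the other 15 of the 16 summed to 494, 561 and 545 against 401, 375 and 395. Of the 10 tested genes of the block that are not among the 148, 6 were higher in all 3 libraries numbered 2. That was 60%, against 16.9% of all genes tested. An example is Rex2, at 60.9, 58.4 and 63.9 against 37.7, 32.8 and 36.0. Rex2 holds 76.5% of the 31-base stretches of Zfp600, and Gm13212, another of the 6, holds 58.1% of those of Zfp984. Levels of such copies are thus not separate from those of the 16. The pseudogene Gm13222 was lower in all 3, at 2.61, 3.19 and 4.74 against 12.04, 8.17 and 7.12, and its change of -1.16 was the largest in size of the 10. Within 2 Mb on either side, 7 of 46 tested genes were higher in all 3 and 8 were lower. These shares, 15.2% and 17.4%, were near the 16.9% and 15.7% of all genes tested. Of these 46, 4 were called by limma with Benjamini-Hochberg adjustment, against 0.376% of all genes, while 0 were called in the block. The 4, named after their values were seen, are the protein-coding genes Gm13089 and Gm13103 and the pseudogenes Gm13058 and Gm13100, which lie between 143595062 and 143916442. All 4 were higher in the libraries numbered 2, with changes of 1.42 to 1.85 and adjusted p of 0.00895 to 0.0419. The difference by replicate number was thus not confined to the block. Neither of the other Zfp genes of chromosome 4, both outside the block, was higher or lower in all 3.

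**Figure D5:**
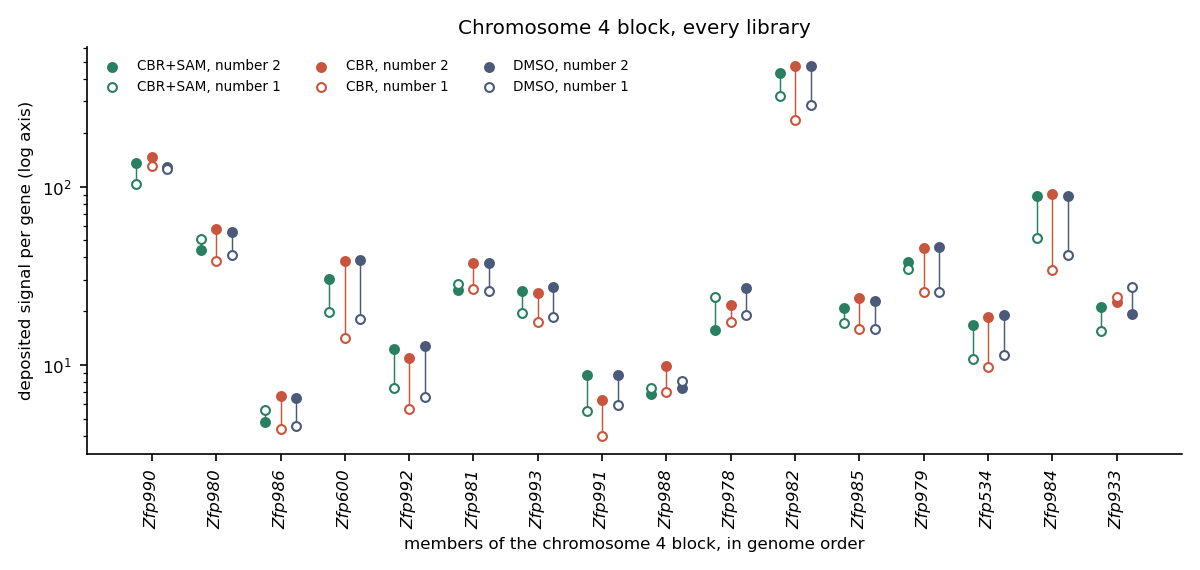
Deposited signal (log axis) of the 16 genes of the chromosome 4 block in genome order, filled points for libraries numbered 2 and open points for libraries numbered 1, coloured by treatment. In 10 genes the filled point is above the open one in all 3 treatments, and Zfp933, at the end of the block, shows no such order.

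Because these genes were high in the same libraries, the sequence upstream of their starts was compared. In the RefSeq promoter table (GRCm38.p6), 127 of the 148 genes had an entry, and 111 had a start within 1000 bases of the annotated gene start, of which 9 are in the block. The 250 bases before the start are shown 5′ to 3′ for Zfp984, for Zfp600 and for Zfp982, which rank among the largest changes, and for Zfp933. Zfp933 is not the only block gene without that order, and its promoter was the least like the others of the block by the rough count of matched bases given below. Capitals mark the longest run of bases that the first 3 have in common.
Zfp984 (chr4:147809789-147810038, minus strand): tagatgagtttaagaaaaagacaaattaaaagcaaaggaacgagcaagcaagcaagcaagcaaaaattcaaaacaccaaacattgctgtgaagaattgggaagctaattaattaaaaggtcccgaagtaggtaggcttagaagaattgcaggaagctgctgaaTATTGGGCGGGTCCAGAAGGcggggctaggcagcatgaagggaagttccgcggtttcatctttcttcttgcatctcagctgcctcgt
Zfp600 (chr4:146156577-146156826, plus strand): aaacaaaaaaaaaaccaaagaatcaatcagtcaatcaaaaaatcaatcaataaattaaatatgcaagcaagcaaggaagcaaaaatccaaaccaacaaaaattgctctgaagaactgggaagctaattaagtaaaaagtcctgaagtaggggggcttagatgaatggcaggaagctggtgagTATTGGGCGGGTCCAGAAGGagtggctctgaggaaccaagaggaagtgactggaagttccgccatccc
Zfp982 (chr4:147492167-147492416, plus strand): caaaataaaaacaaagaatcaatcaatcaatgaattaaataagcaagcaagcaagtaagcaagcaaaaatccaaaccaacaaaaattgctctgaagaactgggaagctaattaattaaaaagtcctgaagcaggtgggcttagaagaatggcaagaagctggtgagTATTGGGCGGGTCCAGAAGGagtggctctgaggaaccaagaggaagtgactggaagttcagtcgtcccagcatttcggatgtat
Zfp933 (chr4:147848419-147848668, minus strand): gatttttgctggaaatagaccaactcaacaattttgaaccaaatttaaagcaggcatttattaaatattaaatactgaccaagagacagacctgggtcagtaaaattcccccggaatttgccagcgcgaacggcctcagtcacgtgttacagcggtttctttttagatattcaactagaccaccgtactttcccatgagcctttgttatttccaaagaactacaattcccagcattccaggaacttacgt
The shared run, TATTGGGCGGGTCCAGAAGG, is 20 bases long and begins 87, 68 and 84 bases before the start in Zfp984, Zfp600 and Zfp982. Searched on both strands in the 250 upstream bases, it occurred in 6 of the 9 block promoters, among them the 3 it was taken from and 3 of the other 6. It occurred in 0 of the 102 promoters of the other genes and in 8 of 32851 promoters of the table, 0.0244%, and all 8 of those lie in the block. The 6 are Zfp984, Zfp600, Zfp982, Zfp980, Zfp985 and Zfp988, of which Zfp988 and Zfp980 were not higher in all 3 libraries numbered 2. Zfp979 and Zfp534 lack the exact run and were higher in all 3. Counted pair by pair, the 8 block promoters other than that of Zfp933 had 175 to 240 of 250 bases matched, with Zfp600 and Zfp979 the most alike. The same count gave Zfp933 17 bases with Zfp600 and 145 with Zfp980, although Zfp600 and Zfp980 matched at 226. It is thus a rough measure, and its low counts are unreliable. A match of letters describes these windows and shows no binding site.

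Among the 132 genes outside the block, 12 were higher in the library numbered 2 in all 3 treatments and 39 were lower. These were 9.09% and 29.5%, against 16.9% and 15.7% of all genes tested, and the median change was -0.07. Zfp952, on chromosome 17, stood lowest relative to the libraries numbered 1, at 25.5, 20.6 and 23.5 in the libraries numbered 2 with CBR+SAM, CBR and DMSO, against 40.3, 45.2 and 45.3 in those numbered 1, a change of -0.89 (95% interval -1.22 to -0.56, adjusted p = 0.0843 by limma). Zfp970 and Zfp967, both on chromosome 2, had changes of -0.72 and -0.62, while Zfp931 on the same chromosome had one of 0.58 and was higher in all 3. Zfp870 had a change of -0.73 and Zfp846 of -0.72. Zfp970 shares 67.9% of its 31-base stretches and Zfp967 all of them, while Zfp952 shares 4.14% and Zfp846 1.35%. In the partner list Cbx3, the gene of heterochromatin protein HP1 gamma, had the smallest p, at 2.76, 1.57 and 2.58 against 7.12, 7.97 and 6.44, a change of -1.32 (95% interval -1.80 to -0.84, adjusted p = 0.0788 by limma). The summed cumulus markers were 13.7, 13.4 and 13.6 in the libraries numbered 2 against 15.2, 14.8 and 9.54, and the sperm markers 16.4, 15.7 and 13.9 against 11.5, 16.2 and 13.4, so neither list separated the numbers. What the numbers stand for was not tested.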

How the data were processed

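RNA was measured in 6 libraries of mouse 1-cell embryos, 2 each for CBR+SAM, CBR and DMSO, with cDNA from a SMART-Seq v4 kit and Nextera XT libraries, per the labels' protocols, which describe neither strand marking nor molecular identifiers. The deposited table holds a signal per gene made by the authors, resembling TPM but rescaled per library, and how is not given in the sources used here. Tools named in the submitters' processing notes are kallisto, fastp and DESeq2, with the build mm10 and no versions or roles. Read counts were not recovered. For each library the signal per read that gave the most whole numbers within a fixed range was taken. Even so, only 74.2% to 79.1% of values of up to 10 reads came within 0.1 of a whole number. By chance 20% would for a value not chosen in this way. Depth estimates therefore cover counting error only roughly.

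Of 36065 identifiers, 35820 matched GENCODE M21 (mm10 coordinates). The 12249 genes that reached 1 in 2 or more libraries were fitted as log2(value + 1) using limma 3.58.1 (R 4.3.3) and its trended prior variance, all 3 groups together and Benjamini-Hochberg adjustment within each comparison. Such changes understate those of low genes. Replicate number was tested with group as covariate. The fits were tested on simulated data. Proteins were translated from M21, since no protein table was used here, and searched for C2H2 fingers with spacings of 2 to 4, 12 and 3 to 5 residues. The KRAB core was searched as W, 2 residues, L or M, 3 residues, Q, 2 residues, L, Y, 2 residues and V. The genes and lists were chosen with earlier results of these data known. Named are the 12 genes of highest mean, the 5 per direction with the smallest p among those whose groups do not overlap in each comparison, listed roles, the genes at the threshold, and Trim28, Setdb1 and the lowest p of the partner list. Zfp664, Zfp106 as an example of 1 library, the further block genes, Rex2, Zfp931 and the Gm-named genes by replicate number were chosen after their values were seen. Alternatives were pseudocount, filter, scaling, array weights, protein-coding genes alone, 4 libraries alone, the replicate block, membership thresholds and leaving out each library.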

Additional observations from a re-analysis of the deposited data

How the results depend on the processing

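The 40 genes named for the smallest p, 10 a comparison, were chosen for groups that do not overlap or for pairs that all go the same way. Their sign could therefore turn only under the scaling alternatives, and it turned for 0 of them. That says nothing of how stable the other genes are. Of the results for the 40, 584 stayed on their side of the threshold, while 24, all by replicate number, passed it. Among the 148 genes the sign turned in at least 1 alternative for 79 in CBR against DMSO, 104 in CBR+SAM against CBR, 92 in CBR+SAM against DMSO and 59 by replicate number. Zfp57 ran from -0.04 to 0.09 in CBR against DMSO. In CBR against DMSO the genes called were 1 with the 4 libraries compared alone, and genes of the 148 at an unadjusted p under 0.05 were 1 with a mean of at least 10, 5 with array weights and 6 with the 4 libraries alone. In both comparisons of CBR+SAM the genes called were 0 with a pseudocount of 0.1, without a filter, with a mean of at least 10 and with protein-coding genes alone, and against DMSO also 0 with 4 libraries alone. With array weights the count at an unadjusted p under 0.05 was 1 in CBR+SAM against CBR. Scaled to the same protein-coding sum, 18.2% of the genes were higher in CBR+SAM against DMSO, and the sum of DMSO replicate 2 was 18409. By replicate number the genes called were 1 without a filter, 26 with a mean of at least 10 and 281 with array weights, and of the 148 genes 1 was called with protein-coding genes alone and 13 with array weights.

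Leaving out each library in turn gave, in CBR against DMSO, 0 to 2 genes called and 1 to 6 of the 148 at an unadjusted p under 0.05. In CBR+SAM against CBR these were 0 to 9 and 0 to 28, and in CBR+SAM against DMSO 0 to 3 and 1 to 32, with 29.1% to 46.6% of the 148 higher. By replicate number they were 45 to 172 genes called, 0 to 9 of the 148 called and 16 to 42 at an unadjusted p under 0.05. No share of all genes at that p is given for these settings, so the counts are not results about the 148. In each setting the library left in the reduced treatment group stood alone for it.

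The main treatment fits left the replicate number out, because the labels do not state that it pairs the libraries. Deviations from the group means were compared between libraries with the same number. Their correlations were 0.392 for CBR and DMSO, 0.218 for CBR+SAM and DMSO and 0.0911 for CBR+SAM and CBR. All were positive, so the values do not show that the number can be ignored. Differences by number stay in the error of the main treatment fits and can widen their intervals. All 6 libraries correlated best with one of their own number, a hint from the data and not from the design. With the replicate number as a block, 5 of the 148 genes had an unadjusted p under 0.05 in CBR against DMSO and 5 in CBR+SAM against CBR, and 0 were called in all 3 treatment comparisons.

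With 2 libraries a group, 95% intervals reached a median of 0.474 to either side for the 148 genes in each treatment comparison. The adjusted threshold was not reached by the largest change, 1.16. These widths are those of fits without the replicate number, and part of them can come from differences by number.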
